A study of Mus musculus with 9 samples.

Results

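The genes described here encode the proteins of the cytosolic ribosome. They were chosen as the protein-coding mouse genes whose symbol is Rpl or Rps followed by a number and, at most, the letter a or x, together with Rplp0, Rplp1, Rplp2 and Rpsa. The rule found 76 genes among the 55335 in the table, 46 of the large subunit and 30 of the small subunit. The rule itself uses no expression value. The study profiled RNA from the substantia nigra of mice, a midbrain nucleus whose dopaminergic neurons degenerate in Parkinson's disease, with 3 libraries in each of 3 groups. Vehicle mice received saline 2 times a week for 5 weeks. MPTP mice received MPTP-HCl, a toxin of dopaminergic neurons, into the peritoneum at 20 mg/kg on the same schedule. Mice of the group labelled MPTP+ PE received the same MPTP course and had 2 months of voluntary wheel running from the first MPTP injection; they are called the running mice here. No group ran without MPTP, and the sources used here give no strain, sex or age. It is not stated that each of the 3 libraries of a group is a separate mouse, so p-values below speak for the spread between libraries alone.

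The ribosome translates mRNA into protein. Its small subunit holds the decoding centre and reads the mRNA, and its large subunit joins the amino acids and holds the exit tunnel. The proteins are built into each subunit in fixed proportion, apart from the acidic stalk proteins. Most of their mRNAs carry a run of pyrimidines at the 5′ end, the TOP motif, through which mTOR complex 1 and the RNA-binding protein Larp1 control their translation. The mRNAs are short and abundant in every cell type, and the mouse genome holds many processed pseudogenes copied from them.

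RefSeq promoter windows on GRCm38.p6, from 250 bases before to 50 bases after the annotated start, were matched for 56 of the 76 genes (34 large, 22 small). A run of at least 8 bases that are all C or T, from 30 bases before to 15 bases after the annotated start, was found in 28 of the 56 genes and in 21.3% of the 27025 genes with a window. The letters CCGGAAG, the core recognised by ETS factors, were found on either strand of the 300 bases in 23 of 56 genes (41.1%) and in 9.93% of all genes. The core AAGATGGC of YY1 was present in 5 genes (8.93%, against 3.19%), the E-box CACGTG in 6 (10.7%, against 8.09%) and the letters TATAAA in 6 (10.7%, against 15.7%). These matches describe letters, not bound sites. The stretches below run from 45 bases before to 15 bases after the annotated start, 5′ to 3′ on the gene's strand, and are shown because these genes carry the values reported further on. Capitals mark the ETS core within the 60 bases shown and the pyrimidine run, sought only from 30 bases before to 15 bases after the start. Each name says which of them is marked. The C and T bases that open the Rpl26 stretch lie outside the range searched for the run and are not marked. Rpl15 and Rps25 also hold the ETS core elsewhere in the 300-base window.
Rpl38 (chr11:114668535-114668594, plus strand; both features): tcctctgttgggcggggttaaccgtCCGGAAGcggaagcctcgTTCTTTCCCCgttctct
Rps7 (chr12:28635939-28635998, minus strand; both features, the ETS core on the opposite strand): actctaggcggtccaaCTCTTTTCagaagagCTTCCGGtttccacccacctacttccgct
Rps10 (chr17:27635230-27635289, minus strand; both features): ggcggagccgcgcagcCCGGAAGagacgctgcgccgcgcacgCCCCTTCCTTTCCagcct
Rpl15 (chr14:18270972-18271031, minus strand; in this stretch the run alone): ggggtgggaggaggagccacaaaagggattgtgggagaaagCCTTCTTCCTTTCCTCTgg
Rps25 (chr9:44407669-44407728, plus strand; in this stretch the run alone): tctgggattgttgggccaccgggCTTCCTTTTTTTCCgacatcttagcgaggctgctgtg
Rpl26 (chr11:68901521-68901580, plus strand; the ETS core alone): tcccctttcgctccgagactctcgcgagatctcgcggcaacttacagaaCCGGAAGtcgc
Rps15 (chr10:80292386-80292445, plus strand; neither in this stretch): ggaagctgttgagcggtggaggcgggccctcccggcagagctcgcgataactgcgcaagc

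The values are FPKM, a fragment count scaled to the length of the gene and the size of the library, and every difference below is a difference in log2(FPKM + 1). The FPKM of all genes summed to 318416 to 319431 in vehicle, 326614 to 347524 in MPTP and 331121 to 344049 in running libraries, and the number of fragments behind each library is unknown. Dopaminergic markers differed in level, and Pitx3 and Foxa2 were listed at 0 in 5 and 2 of the 9 libraries. Th, which encodes tyrosine hydroxylase, ranged from 2.97 to 15.6 FPKM in vehicle, 1.64 to 12.5 in MPTP and 2.66 to 6.69 in running libraries. The dopamine transporter gene Slc6a3 was listed at 0 in 1 running library and at 0.038 FPKM in the lowest MPTP library. It reached 10.8, 14.4 and 10.6 FPKM in the highest vehicle, MPTP and running library. Aldh1a1 and Calb1, which other cells also express, were higher, at 22.1 to 43.0 and 14.9 to 21.3 FPKM in vehicle, 30.4 to 42.1 and 12.8 to 23.2 in MPTP and 27.6 to 46.8 and 17.2 to 20.8 in running libraries. The 12 markers summed to 65.8 to 92.0, 68.4 to 113 and 68.0 to 98.3 FPKM in the same order, and 0 of the 10 tested passed in any comparison. These sums include Aldh1a1 and Calb1 and so do not stand for dopaminergic neurons alone. The tissue was measured in bulk, so fewer cells of a type and less RNA per cell cannot be told apart.

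All 76 genes were abundant. Their mean FPKM over the 9 libraries ran from 12.2 for Rps20 to 417 for Rps15, a 34.2-fold range, with a median of 62.5 in the large and 63.8 in the small subunit. All 76 passed the filter of a mean of at least 0.5 FPKM that left 15997 genes for testing, and 78.8% of the tested genes lay below the lowest ribosomal protein gene. The genes lie on 19 chromosomes.

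**Figure D1:**
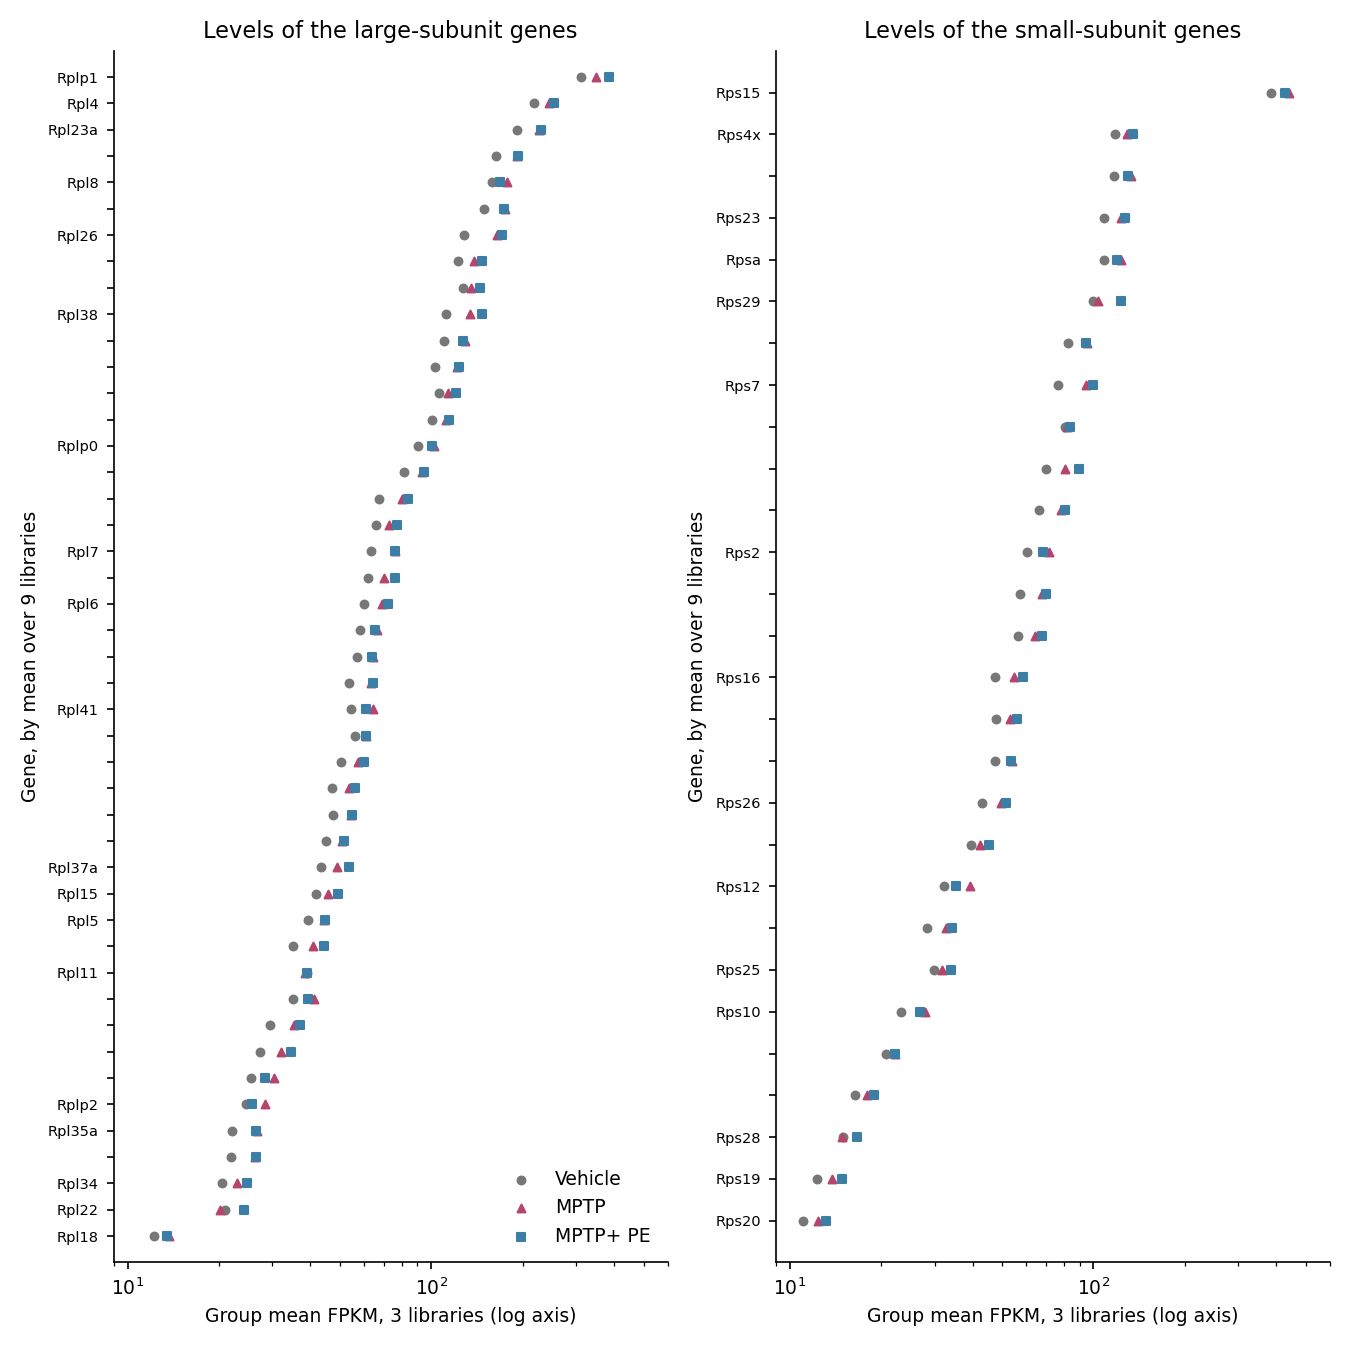
Group mean FPKM (log axis) of 73 of the genes, ordered by mean over the 9 libraries and labelled where the text names them, with the large subunit at left and the small at right; circles are vehicle, triangles MPTP and squares running mice. Group means spread from 11.0 (Rps20, vehicle) to 441 FPKM (Rps15, MPTP), and the vehicle mean lies at the left of most rows.

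In the large subunit the highest levels were those of Rplp1, an acidic protein of the stalk that recruits elongation factors, at 349 FPKM, Rpl4, which lines the exit tunnel, at 238 FPKM, and Rpl23a, which sits at the tunnel's exit, at 216 FPKM. The lowest were Rpl18 at 13.1, Rpl22 at 21.8 and Rpl34 at 22.7 FPKM. In the small subunit Rps15 (chr10:80292453-80294114), a protein of the subunit's head, stood apart at 417 FPKM, and the X-linked Rps4x averaged 127 FPKM. Rps20, Rps19, which is mutated in Diamond-Blackfan anaemia, and Rps28 were lowest, at 12.2, 13.7 and 15.5 FPKM.

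Rps15 read 377, 355 and 418 FPKM in vehicle, 380, 511 and 432 in MPTP and 461, 374 and 448 in running libraries. Its lowest library was a vehicle library and its highest was MPTP replicate 2, and the groups overlapped. Rplp1 read 321, 291 and 324 FPKM in vehicle, 292, 442 and 310 in MPTP and 414, 314 and 428 in running libraries. Rps15 was above Rplp1 in each of the 9 libraries. The other stalk genes were lower: Rplp0, the protein that anchors the stalk, averaged 98.0 FPKM and Rplp2, the partner of Rplp1, 26.1 FPKM. Rpsa, the homolog of the laminin receptor, averaged 117 FPKM.

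A level in FPKM depends on the length the authors divided by, and 3 of the lowest genes had long annotated exons. The exons of Rps20 and Rps19 cover 4080 and 4685 bases in GENCODE M21, and those of Rpl18 4043 bases, against 630 bases for Rps15 and 499 for Rplp1, whereas those of Rps28, also among the lowest, cover 1719 bases. Over all 76 genes the median exonic length was 1806 bases, while the median principal transcript was 882 bases. The sources used here do not say which length the authors used, and its part in the order of the levels was not tested.

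Sequence shared with other genes may also bear on the levels, which was not tested. Of the 76 genes, 65 shared at least 50% of the 50-base stretches of their coding sequence with transcripts of other genes. Every stretch was shared in 28. Genes that overlap them at the same place in the genome were not left out of these counts. Rps29, Rps23, Rpl38 and Rpl15 were among the genes that shared every stretch, whereas Rpl41, the shortest of the proteins, shared 4.49% and Rpl8, a protein near the peptidyl transferase centre, 8.73%. The 1074 annotated pseudogenes with such stretches summed to 2467 to 2680 FPKM in vehicle, 2740 to 3330 in MPTP and 2903 to 3332 in running libraries. The counting could thus split reads between a gene and its copies, and the FPKM of the genes with full sharing are uncertain to that extent. In 37 of the 76 genes the exons also overlapped those of another gene, Snord and Snora genes among them.

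The FPKM of the 76 genes summed to 5800, 5297 and 5899 in vehicle, 5931, 7373 and 6080 in MPTP and 7142, 6221 and 6536 in running libraries. The means were 5665 ± 323 in vehicle, 6461 ± 793 in MPTP and 6633 ± 468 in running libraries (SD, n = 3). All 3 MPTP and all 3 running libraries lay above the highest vehicle library, the lowest MPTP library by little, and MPTP and running libraries overlapped. As a share of the library's FPKM the groups overlapped: the 76 genes made up 1.82%, 1.66% and 1.85% in vehicle, 1.77%, 2.12% and 1.86% in MPTP and 2.08%, 1.83% and 1.97% in running libraries. MPTP replicate 1 and running replicate 2 were below vehicle replicate 3 on that scale.

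The subunits moved together in these sums. The large-subunit genes summed to 1.72 ± 0.0449 times the small-subunit genes in vehicle, 1.74 ± 0.0259 times in MPTP and 1.75 ± 0.0181 times in running libraries (SD, n = 3), and the 9 ratios lay between 1.67 and 1.77. The ratios of the 3 groups overlapped.

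**Figure D2:**
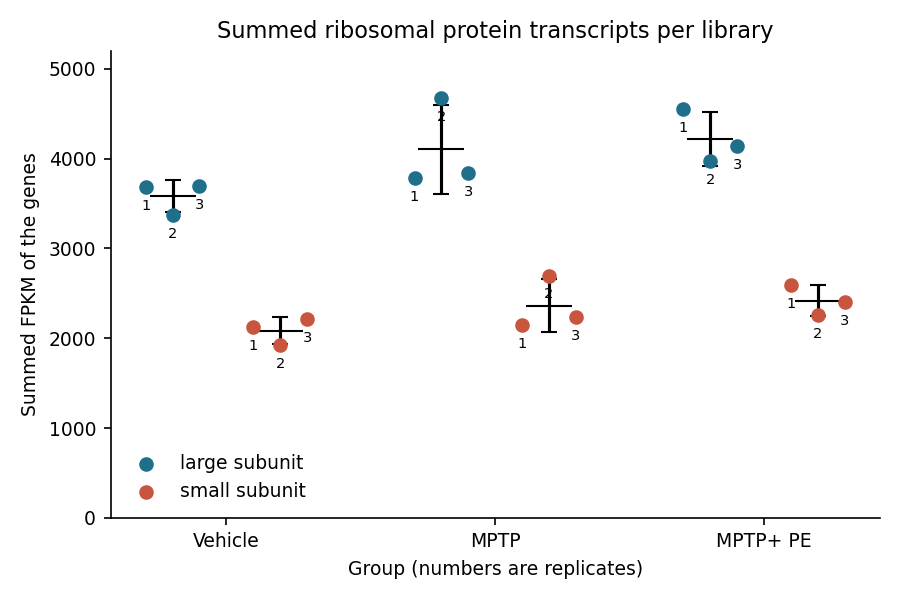
Summed FPKM of the 46 large-subunit genes (blue) and the 30 small-subunit genes (red) in each library, with the replicate number below each point; the bar and whiskers are the mean and SD of 3 libraries. MPTP replicate 2 and running replicate 1 are highest in both subunits, and vehicle replicate 2 is lowest.

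Most of the genes ranked the libraries alike. MPTP replicate 2 was among the 2 highest libraries for 70 of the 76 genes and running replicate 1 for 56, and for 51 genes these were the 2 highest. Vehicle replicate 2 was the lowest library for 62 genes. MPTP replicate 2 and running replicate 1 also had the highest FPKM summed over all genes, 347524 and 344049, and the part of the library's composition in the ranking was not tested.

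The Pearson correlation of each gene's log2(FPKM + 1) with the mean of the other 75 over the 9 libraries, which all share depth and composition, had a median of 0.91. It was at least 0.8 for 55 genes and under 0.5 for 3. Rps23, at the decoding centre, followed the others most closely (0.98), and Rps16 (0.98) came next. Rps25 (0.36), Rpl11 (0.39), Rpl41 (0.41), Rps20 (0.51) and Rpl22 (0.54) followed them least.

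Rps23 read 109, 100 and 115 FPKM in vehicle, 114, 141 and 115 in MPTP and 144, 115 and 122 in running libraries, with running replicate 1 highest, MPTP replicate 2 next and vehicle replicate 2 lowest. Rps25, a small-subunit protein needed by some viral internal entry sites, read 24.2, 30.8 and 34.4 FPKM in vehicle, 24.8, 34.3 and 35.8 in MPTP and 34.9, 38.9 and 27.8 in running libraries. Its lowest libraries were vehicle replicate 1 and MPTP replicate 1, and the 3 groups overlapped throughout. Rpl11, which with Rpl5 forms the particle that can bind Mdm2, read 34.5, 37.8 and 44.9 FPKM in vehicle, 36.5, 41.8 and 36.8 in MPTP and 40.8, 39.7 and 36.6 in running libraries. Its highest value was in vehicle replicate 3 and its lowest in vehicle replicate 1. Rpl41 read 45.5, 66.5 and 51.0 FPKM in vehicle, 54.0, 70.8 and 68.7 in MPTP and 66.7, 51.1 and 64.6 in running libraries, without separation of the groups.

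**Figure D3:**
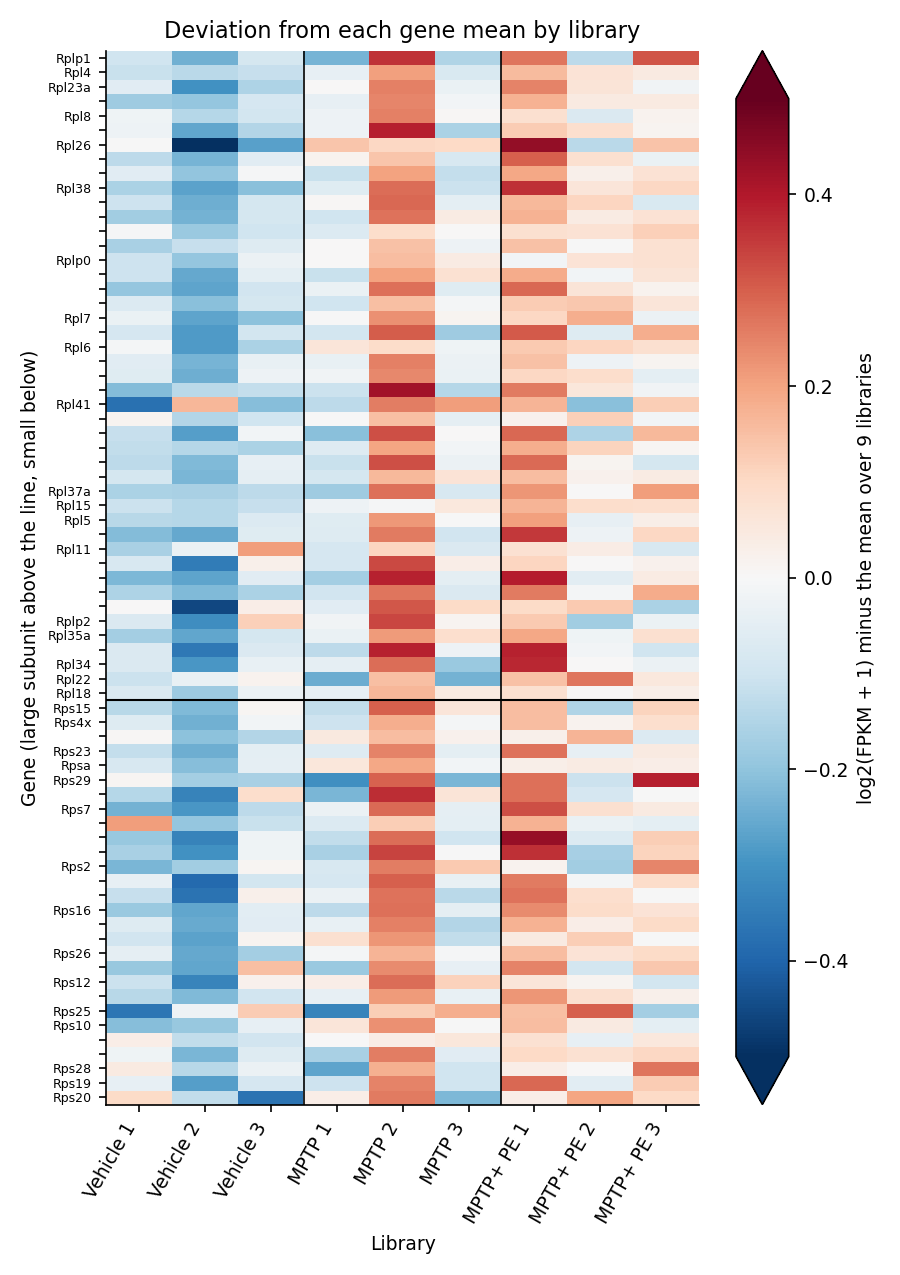
Deviation of log2(FPKM + 1) from the gene's mean over 9 libraries (colour, from blue for lower to red for higher), 73 genes in rows by subunit and level, labelled where the text names them, and libraries in columns by group. MPTP replicate 2 and running replicate 1 are red for most genes and vehicle replicate 2 is blue; Rps25, Rpl11 and Rpl41 break the pattern.

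MPTP was compared with vehicle to ask what the toxin course alone did. Of the 76 genes, 73 had a higher mean log2 level in MPTP, 44 of 46 in the large and 29 of 30 in the small subunit. The median difference was 0.19, or 1.14-fold, and it was 0.19 in each subunit. Over the 15997 genes tested 48.1% were higher, with a median of −0.0059. None of the 76 genes passed limma's test at an adjusted p of 0.05, where 0.0125% of all genes did. With an unadjusted p under 0.05, 8 were higher and 0 lower, against 2.61% and 1.48% of all genes (4.09% in either direction). In 23 genes every MPTP library lay above every vehicle library, against 5.2% of all genes, and in 0 genes below, against 4.23%. Of 3323 genes outside the 76 and at least as abundant as the lowest of them, 58.4% were higher, with a median of 0.025. At an unadjusted p under 0.05, 69 of these were higher and 16 lower, and 183 lay above and 68 below without overlap.

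The small-subunit genes with the smallest p were Rps7, Rps10 and Rps12, and those of the large subunit Rpl35a, Rpl7 and Rpl26; none passed. Rps7 read 75.5, 72.7 and 81.5 FPKM in vehicle and 87.4, 109 and 86.5 in MPTP, a log2 difference of 0.29 ± 0.12 (SE). All 3 MPTP libraries were above all vehicle libraries, and replicate 2 was farthest (limma adjusted p = 0.991). Rpl35a, a Diamond-Blackfan anaemia gene, read 22.1, 20.7 and 23.4 FPKM in vehicle and 24.4, 29.1 and 26.5 in MPTP, a difference of 0.26 ± 0.096 (SE). Rpl26, which also binds p53 mRNA, read 152, 106 and 126 FPKM in vehicle and 168, 163 and 163 in MPTP, a difference of 0.38 ± 0.16 (SE). Here the vehicle libraries were spread and the MPTP libraries close together, without overlap. Rps10, Rps12 and Rpl7 differed by 0.24, 0.28 and 0.25, also without overlap of the groups.

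The 3 genes with a lower mean were Rpl22, Rpl11 and Rps28. Rpl22, a large-subunit protein with the paralog Rpl22l1, read 20.0, 21.05 and 21.9 FPKM in vehicle and 18.1, 24.1 and 18.2 in MPTP, a difference of −0.068 ± 0.12 (SE). The MPTP libraries lay on both sides of the vehicle libraries. Rpl11 and Rps28 differed by −0.022 and −0.021 and overlapped as well, and leaving out 1 library turned the sign of either.

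The size of this difference rested on MPTP replicate 2. Without that library the median was 0.085, with 67 of 76 genes higher, and 0 genes reached an unadjusted p of 0.05, where 465 of all 15997 genes did, against 654 with all libraries. That number was 1 without vehicle replicate 2 (586 of all genes), 5 without running replicate 1 or 3 (610 and 604), and at most 11, without MPTP replicate 1 (736). The labels state no pairing, and same-numbered MPTP and vehicle libraries deviated together only weakly (correlations 0.25, 0.33 and 0.11). With the replicate number as a block over all 9 libraries, 2 genes reached an unadjusted p of 0.05 (719 of all genes) and 0 passed. With libraries scaled to one FPKM sum the median was 0.11, 71 genes were higher and 0 reached an unadjusted p of 0.05, while over all genes 5096 of 15997 were higher and 824 reached it.

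Genes of the same pathway from outside the name pattern were also higher. Rps3a1, which encodes a small-subunit protein, Fau, which encodes the precursor of Rps30, and Rack1, the scaffold on the small subunit's head, differed by 0.20, 0.20 and 0.084, and none passed. Of the 9 paralogs, 6 were tested and all 6 were higher, from 0.10 for Rps27rt to 0.21 for Rpl22l1, while Rpl10l was listed at 0 in all libraries. All 10 elongation factor genes were higher, with a median of 0.089, as were 24 of 35 initiation factor genes (0.044) and 9 of 11 other TOP mRNAs (0.15). Ribosome biogenesis genes were divided, 20 of 38 higher with a median of 0.0052, and of 20 genes of mTOR complex 1 and TOP control 8 were higher (−0.042). None of these genes passed limma's test. With an unadjusted p under 0.05, 1 biogenesis gene was higher and 1 biogenesis gene and 1 mTOR gene lower on these lists. Over all genes 2.61% were higher and 1.48% lower at that p.

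The gene with the smallest p in the mTOR list was Ddit4, an inhibitor of mTOR complex 1 induced by stress, at 23.2 ± 6.96 FPKM in vehicle, 15.1 ± 3.01 in MPTP and 23.1 ± 3.26 in running libraries (SD, n = 3). The differences of −0.57 and 0.59 in the 2 comparisons with MPTP did not pass (limma adjusted p = 0.991 and 0.9999). Those comparisons share the MPTP libraries.

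The running mice were compared with MPTP mice to ask what running added. The 76 genes were close to level: 55 were higher, 34 of 46 in the large and 21 of 30 in the small subunit, with a median of 0.047. Over all genes 45.7% were higher, with a median of −0.012. None passed limma's test, as in 0.0% of all genes, and 0 had an unadjusted p under 0.05, against 1.11% of all genes higher and 2.89% lower (3.99% in either direction). Running libraries lay above MPTP libraries without overlap in 1 gene, Rpl15, against 2.66% of all genes, and below in 0, against 5.36%. Of the 3323 equally abundant genes outside the 76, 56.5% were higher, with a median of 0.014.

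Rpl15, another Diamond-Blackfan anaemia gene, read 44.5, 45.1 and 47.0 FPKM in MPTP and 51.1, 48.3 and 48.2 in running libraries, a difference of 0.11 ± 0.067 (SE). Rpl22 read 24.1, 26.2 and 22.4 FPKM in running libraries, above 2 of the 3 MPTP libraries, and differed by 0.27 ± 0.12 (SE). Rps29 read 86.6, 132 and 91.6 FPKM in MPTP and 130, 99.6 and 141 in running libraries, a difference of 0.27 ± 0.18 (SE) with wide overlap. Rpl37a and Rps28 differed by 0.14 and 0.16. The differences of 5 named genes that were lower, Rps12, Rplp2, Rps2, Rpl8 and Rpsa, lay between −0.15 and −0.043.

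Rps12 read 36.3, 43.2 and 38.4 FPKM in MPTP and 37.0, 35.8 and 33.1 in running libraries, a difference of −0.15 ± 0.11 (SE), with running replicate 1 inside the MPTP range. Each gene named in this comparison had an adjusted p of 0.9999 by limma.

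The direction in this comparison changed with the libraries used. Leaving out MPTP replicate 2 gave a median of 0.14, with 72 genes higher and 8 reaching an unadjusted p of 0.05 (1034 of all genes, against 639 with all libraries). It was −0.010 without running replicate 1 and −0.0086 without MPTP replicate 1, each with 32 genes higher, and 0.0046 without MPTP replicate 3, with 41 higher. With MPTP replicate 2 and running replicate 1 both left out it was 0.078, with 67 higher.

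The related lists were as level. Elongation factor genes were higher in 5 of 10 (median −0.011), initiation factor genes in 21 of 35 (0.017), other TOP mRNAs in 7 of 11 (0.030) and biogenesis genes in 19 of 38 (0.0019). Of the mTOR list 11 of 20 were higher, and Ddit4 alone on these 5 lists reached an unadjusted p of 0.05. Over all genes 3.99% did. All 6 tested paralogs were higher, from 0.076 for Rpl7l1 to 0.20 for Rps27rt, and Rps3a1, Rack1 and Fau differed by 0.083, 0.069 and 0.036. None of these genes passed limma's test.

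Running mice were also set against vehicle, a contrast of the whole MPTP and running course. All 76 genes had a higher mean in running mice, with differences of up to 0.41 (Rpl26). The median was 0.22, or 1.17-fold, with 0.22 in the large and 0.21 in the small subunit, while over all genes 44.7% were higher and the median was −0.022. None passed limma's test (0.0% of all genes did; smallest adjusted p among the 76, 0.753). With an unadjusted p under 0.05, 24 were higher, 19 large and 5 small, and 0 lower, against 3.12% and 3.43% of all genes (6.54% in either direction). In 44 genes, 32 large and 12 small, every running library lay above every vehicle library, against 6.38% of all genes, and in 0 genes below, against 9.2%. Of 3323 genes outside the 76 and at least as abundant as the lowest of them, 60.5% were higher, with a median of 0.040. At an unadjusted p under 0.05, 214 of these were higher and 44 lower, and 442 lay above and 141 below without overlap.

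Rpl38, which is required for translation of some Hox mRNAs in the embryo, read 116, 107 and 112 FPKM in vehicle and 167, 135 and 139 in running libraries. The groups were well separated, and the difference was 0.39 ± 0.12 (SE). Rps7 read 112, 94.4 and 92.1 FPKM in running libraries, above its vehicle values, a difference of 0.37 ± 0.12 (SE). Rpl15 read 42.1, 41.0 and 41.8 FPKM in vehicle, with little spread, and differed by 0.24 ± 0.067 (SE). Rps26, at the exit of the mRNA channel, read 46.3, 39.8 and 42.4 FPKM in vehicle and 53.3, 50.2 and 51.2 in running libraries, a difference of 0.26 ± 0.087 (SE). Rpl6 differed by 0.26, also without overlap, and each of these 5 genes had an adjusted p of 0.753 by limma.

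The number that reached an unadjusted p of 0.05 was 24 with all libraries, 4 without running replicate 1, 3 without vehicle replicate 2, 14 without running replicate 3 or vehicle replicate 1 and 37 without MPTP replicate 2. Over all 15997 genes it was 1047, 661, 808, 894 or 1071, and 1477 in the same order. The median stayed between 0.17 and 0.25 when each library was left out, with at least 72 genes higher. With libraries scaled to one FPKM sum it was 0.14, with 72 genes higher and 2 at that p, while over all genes 4669 were higher and 1360 were at that p. Rps3a1, Fau and Rack1 differed by 0.29, 0.24 and 0.15, and all 6 tested paralogs were higher (median 0.26, from 0.18 for Rpl7l1 to 0.33 for Rps27l); none of these passed. Elongation factor genes were higher in 7 of 10 (median 0.078), initiation factor genes in 26 of 35 (0.071), other TOP mRNAs in 10 of 11 (0.15), biogenesis genes in 22 of 38 (0.023) and the mTOR list in 8 of 20 (−0.024). On these lists 0 genes passed, and 1, 7, 2, 1 and 0 genes in that order were higher with an unadjusted p under 0.05. Over all genes 3.12% were higher at that p. This comparison shares its vehicle libraries with the comparison of MPTP against vehicle and its running libraries with that of running against MPTP.

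**Figure D4:**
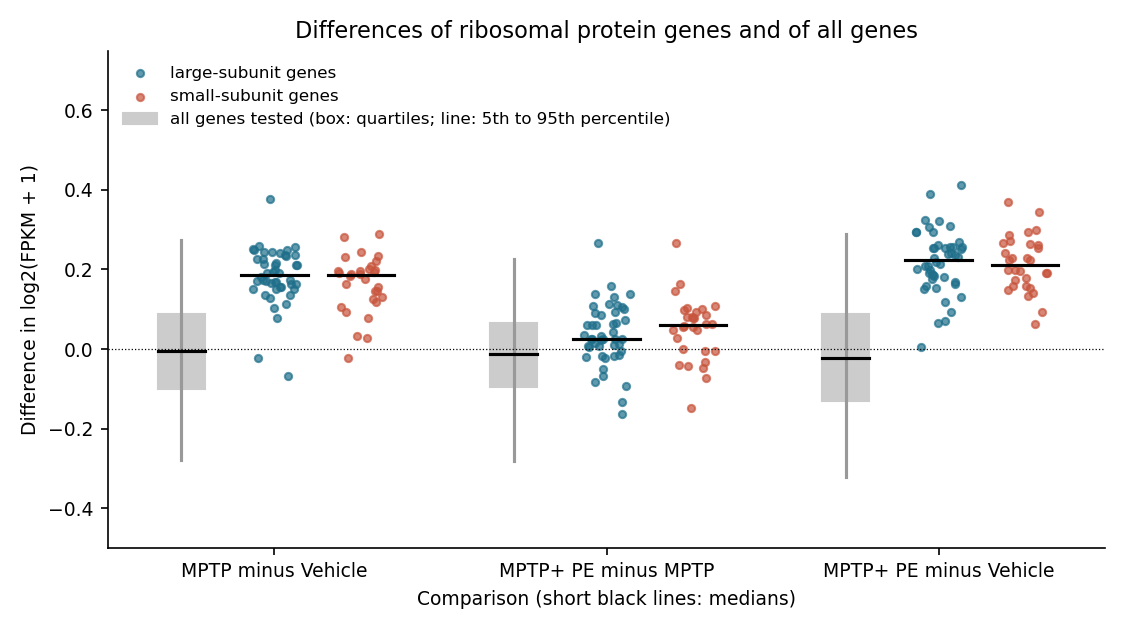
Difference in log2(FPKM + 1) of each ribosomal protein gene in the 3 comparisons, large subunit in blue and small in red, beside all 15997 genes tested (grey box, quartiles; grey line, 5th to 95th percentile); black lines are medians. The medians of both subunits lie near 0.19 for MPTP minus vehicle and 0.22 for running minus vehicle, and near 0 for running minus MPTP.

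The median differences of the large and the small subunit lay within 0.034 of each other in all 3 comparisons. The median difference of the large-subunit genes minus that of the small-subunit genes was −0.00025 for MPTP against vehicle, −0.034 for running against MPTP and 0.013 for running against vehicle. In single libraries, the large-subunit median of log2(FPKM + 1) minus the small-subunit median varied within the groups compared by 0.082, 0.051 and 0.082 (SD). That SD is of levels in single libraries, not of the differences above, so it gives a scale only. For running against vehicle, 32 of 46 large and 12 of 30 small genes lay above vehicle without overlap. For MPTP against vehicle these were 16 of 46 and 7 of 30. Genes with and without the pyrimidine run near the start had medians of 0.17 (28 genes) and 0.19 (28 genes) for MPTP against vehicle and of 0.20 each for running against vehicle. Genes with and without the ETS core had medians of 0.20 (23 genes) and 0.17 (33 genes) for the former, and of 0.23 and 0.20 for the latter.

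Transcript length moved with the differences from vehicle among abundant protein-coding genes. Among protein-coding genes outside the 76 that were at least as abundant as the lowest of them, those with a principal transcript under 1000 bases had a median difference of 0.15 for MPTP against vehicle (231 of 260 higher). It was 0.088 from 1000 to 2000 bases, 0.021 from 2000 to 4000 bases, −0.065 from 4000 to 8000 bases and −0.16 from 8000 bases on (8 of 102 higher). For running against vehicle the medians were 0.22 (240 of 260 higher), 0.10, 0.023, −0.057 and −0.16 in the same order, and for running against MPTP 0.063, 0.022, 0.0041, 0.0057 and 0.0013. In the shortest class 15.4% of these other genes lay above vehicle without overlap in MPTP and 44.6% in running mice. Of the 260 genes in that class, 17 were higher in MPTP and 69 in running mice than in vehicle with an unadjusted p under 0.05.

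Of the 76 genes, 48 had a principal transcript under 1000 bases, and their medians for MPTP against vehicle were 0.20 under 500 bases (9 genes) and 0.19 from 500 to 1000 bases (39 genes). The 23 genes from 1000 to 2000 bases had a median of 0.17, and the 5 longer ones 0.15. When each library's trend with transcript length, drawn through 3106 genes outside the 76, was subtracted, the median was 0.063 for MPTP against vehicle (63 of 76 higher), −0.0038 for running against MPTP (35 higher) and 0.039 for running against vehicle (53 higher). The numbers reaching an unadjusted p of 0.05 were then 1, 1 and 3, where 612, 672 and 916 of all genes did, and 0 passed. This correction was added after the trend was seen.

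**Figure D5:**
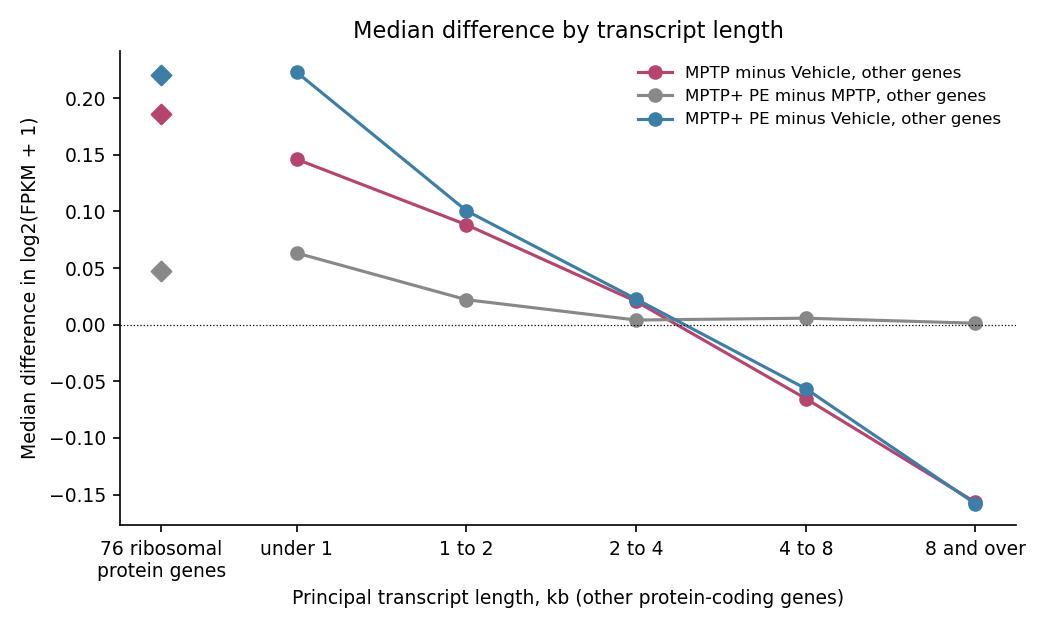
Median difference in log2(FPKM + 1) of protein-coding genes outside the 76 by principal transcript length in kilobases (lines), and the median of the 76 genes (diamonds at left), for the 3 comparisons. Short genes outside the 76 have medians of 0.15 and 0.22 against vehicle, near the 0.19 and 0.22 of the ribosomal protein genes, and the medians fall to −0.16 in the longest class.

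Markers of other cells also varied between libraries, and on the 4 lists that follow 0 genes passed limma's test in any comparison. The choroid plexus markers, among them Ttr, which encodes transthyretin, were higher in MPTP than vehicle in 12 of 12 genes. Of these, 10 had an unadjusted p under 0.05, against 2.61% of all genes higher, and 0 passed limma's test. The FPKM of the 12 markers summed to 40.0 to 350 in vehicle, 965 to 2098 in MPTP and 22.8 to 959 in running libraries. Running replicate 2 had the lowest of these sums, 22.8. All 12 markers were lower in running than in MPTP mice, 5 with an unadjusted p under 0.05, against 2.89% of all genes lower. In microglia 11 of 12 markers were higher in MPTP than in vehicle, against 48.1% of all genes. Of these, 4 had an unadjusted p under 0.05, against 2.61% of all genes higher. In running mice 11 of 12 were lower than in MPTP mice. At that p 2 were lower and 1 higher, against 2.89% and 1.11% of all genes. The microglia markers summed to 171 to 208 FPKM in vehicle, 209 to 290 in MPTP and 197 to 223 in running libraries. Of 10 thalamus markers 0 were higher in MPTP or in running mice than in vehicle, and 0 had an unadjusted p under 0.05. Their sums were 111 to 281 in vehicle, 72.4 to 237 in MPTP and 123 to 145 in running libraries, with overlap. Red blood cell genes summed to 437 in vehicle replicate 3 and to 10.8 to 59.6 in the other 8 libraries. Every running library, at 10.8 to 45.5, was below every vehicle library, at 50.9 to 437. All 5 genes were lower in running mice than in vehicle, 4 with an unadjusted p under 0.05, against 3.43% of all genes lower. All 5 were also lower in MPTP than in vehicle, 0 of them at that p. No marker on these 4 lists was at 0 in all libraries. The sums of oligodendrocyte, astrocyte and GABAergic neuron markers overlapped among the 3 groups. The part of any of these cells in the differences of the ribosomal protein genes was not tested.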

How the data were processed

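The authors deposited FPKM values for 55335 genes in 9 libraries of substantia nigra RNA, 3 per group. Per the submitters' processing notes the build was GRCm38 and the tools included DESeq2, HTSeq and bcl2fastq, with no version. Aligner, FPKM tool, gene length and strandedness: not given in the sources used here. Counts were not used here. Low FPKM times exonic length were whole multiples of one step, within 2%, for at most 52.1% of values in a library, so no reads were recovered and depth is unknown. Symbols and coordinates came from GENCODE M21 (55154 genes matched), promoters from RefSeq. limma 3.58.1 in R 4.3.3 fitted log2(FPKM + 1) over all 9 libraries with its trend option, after genes averaging under 0.5 FPKM were dropped (15997 left), two-sided, with Benjamini-Hochberg adjustment over all genes tested; tables were made with pandas 2.3.3. The fit was tested on simulated data.

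The genes and lists were chosen with earlier results of these data known. Genes named are the 3 highest and 3 lowest of each subunit, per comparison, subunit and direction the 3 smallest p, the stalk genes and Rpsa, and the 5 least and 3 most like the rest; of related lists, all ribosomal genes and up to 2 per list. The labels state no pairing. Same-numbered MPTP and vehicle libraries deviated together weakly (correlations 0.25, 0.33 and 0.11), so the number was tried as a block. MPTP replicate 3 did not correlate best with its own number. With running libraries the correlations were −0.34, −0.13 and 0.25 (MPTP) and −0.26, 0.0069 and 0.24 (vehicle). There the numbers were not taken to pair libraries, though the block covered all 9. Alternatives covered the pseudocount, the filter, scaling, the libraries in the fit and, chosen after seeing the data, leaving out MPTP replicate 2 with running replicate 1, and a loess correction for transcript length (span 0.5). Transcript length is that of the APPRIS principal transcript. Some genes that the naming rule selects are not reported here; they remain in the counts, sums and medians.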

Additional observations from a re-analysis of the deposited data

How the results depend on the processing

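None of the 76 genes passed limma's test under any alternative in any comparison. The median difference of the 76 genes for running against vehicle moved from 0.22 to 0.14 with libraries scaled to the same sum and to 0.039 with the length trend removed. Leaving out each library gave medians of 0.085 to 0.24 for MPTP against vehicle, −0.010 to 0.14 for running against MPTP and 0.17 to 0.25 for running against vehicle. The large-minus-small differences ranged from −0.0098 to 0.027, −0.049 to −0.0029 and −0.017 to 0.026 in that order, and the mean sums from 5549 to 5850 in vehicle, 6005 to 6726 in MPTP and 6379 to 6839 in running mice. The replicate block left the medians at 0.19, 0.047 and 0.22 and the genes passing at 0. The number with an unadjusted p below 0.05 went from 8 to 2, 0 to 1 and 24 to 13. Over all 15997 genes it went from 654 to 719, 639 to 672 and 1047 to 1085. Running libraries were not paired by their numbers, and not every library correlated best with its own number.

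Signs turned for 5 named genes. For MPTP against vehicle, Rpl11 was 0.012, 0.0063 and 0.080 when MPTP replicate 1, MPTP replicate 3 or vehicle replicate 3 was left out (range over libraries −0.11 to 0.080). Rps28 was 0.080 without MPTP replicate 1 and 0.022 without vehicle replicate 1 (−0.14 to 0.080). For running against MPTP, leaving out MPTP replicate 2 gave 0.020 for Rpl8 (−0.12 to 0.020), 0.015 for Rpsa (−0.089 to 0.015) and 0.0048 for Rps2 (−0.18 to 0.028). Without running replicate 2, Rps2 was 0.028. With both MPTP replicate 2 and running replicate 1 left out, Rpsa was 0.016 and Rps2 0.011. With 3 libraries per group and unknown depth, differences of the size seen here did not pass gene by gene.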

Other observations

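All 36 complex I subunit genes were higher in MPTP than in vehicle (median 0.14) and in running mice than in vehicle (median 0.22), and 31 of 36 in running than in MPTP mice (median 0.05). Their FPKM summed to 1286 to 1464 in vehicle, 1370 to 1733 in MPTP and 1513 to 1652 in running libraries. Of 78 mitochondrial ribosomal protein genes, 67 were higher in MPTP than in vehicle (median 0.10) and 66 in running mice than in vehicle (median 0.13). Mrpl32, of the large mitochondrial subunit, averaged 1.56 ± 0.167 FPKM in vehicle, 1.97 ± 0.261 in MPTP and 2.79 ± 0.263 in running libraries (SD, n = 3), and its difference of 0.56 for running against vehicle did not pass (limma adjusted p = 0.753). None of these genes passed limma's test. At an unadjusted p below 0.05, 0 complex I and 2 mitochondrial ribosomal genes were higher in MPTP than vehicle, against 2.61% of all genes. In running mice 12 and 9 were higher than in vehicle, against 3.12% of all genes. Abundant protein-coding genes other than the cytosolic ribosomal protein genes described here, with principal transcripts under 1000 bases, numbered 260. Their medians against vehicle were 0.15 in MPTP (231 higher) and 0.22 in running mice (240 higher). The part of transcript length in the differences of the complex I and mitochondrial ribosomal genes was not tested.

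Endothelial markers were lower in running than in MPTP mice in 8 of 8 genes, with a median of −0.29. Their FPKM summed to 58.0 to 61.7 in vehicle, 65.9 to 69.5 in MPTP and 48.4 to 61.6 in running libraries. Of the 8, 0 passed limma's test and 6 had an unadjusted p under 0.05, against 2.89% of all genes lower.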
